A study of Mus musculus with 8 samples.

Results

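The genes described here are 36 imprinted genes, that is, genes of which mostly the copy inherited from 1 parent is transcribed, among the 55335 genes counted in the E14 mouse embryonic stem cell (ESC) libraries. The genes were listed by symbol, and H19 was selected on its level in the Sox2 knockdown (KD) libraries, so that its values there are given as a description with no test. All 36 were found in the counts. E14 is an ESC line, and every culture was infected with a lentivirus carrying a short hairpin RNA (shRNA) and kept under drug selection. The 4 groups of 2 biological replicates carried a scrambled control shRNA (negative control, called control), shRNAs against Sox2 (Sox2-KD), shRNAs against Hnrnpk (hnRNPK-KD) or shRNAs against Cdk9 (Cdk9-KD), on the same E14 background. No source used here describes cloning of the infected cells, and which shRNA each replicate carried is not given in the sources used here. The study compared expression in the knockdowns of SOX2, its partner hnRNPK and the elongation kinase CDK9 to assess hnRNPK in SOX2-mediated elongation. Its main result was on alternative splicing shared by Sox2-KD and hnRNPK-KD, which is not covered here.

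Imprinted genes lie in clusters, and in each cluster a control region carries DNA methylation on the maternal or the paternal chromosome, set in the germ line and kept after fertilization by ZFP57, ZFP445 and the maintenance methyltransferase DNMT1. In the cluster that holds H19 and Igf2, the insulator protein CTCF binds the unmethylated maternal copy, H19 is transcribed from that copy, and the growth factor gene Igf2 is transcribed from the paternal copy. Imprinted genes are best known for growth of the embryo and placenta, and the methylation of several clusters is known to be lost or gained in cultured ESCs. The counts are summed over both parental copies, so that the copy in use cannot be read from them.

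H19 (chromosome 7, 142575529 to 142578143, minus strand, GENCODE vM21 on GRCm38) is a noncoding RNA whose first exon is also the precursor of miR-675. The mature forms are shown because H19 is their host gene. They are from RefSeq on GRCm38.p6, with the seed (bases 2 to 8) in capitals. Both forms lie on the minus strand, at chr7:142577112-142577133 and chr7:142577078-142577099, within an exon of H19. The counts are of polyA RNA, in which the miR-675 gene itself had 0 counts, and the mature forms were not measured.
miR-675-5p: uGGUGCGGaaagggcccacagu
miR-675-3p: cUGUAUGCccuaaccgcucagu

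RefSeq start site windows (250 bases before to 50 after a start) were at hand for 28 of the 36 genes, 42 windows in all. The genes with no window were H19, Rtl1, Peg10, Sgce, Cdkn1c, Impact, Peg13 and Trappc9. Each window was searched on both strands for TGCCGC, the core that ZFP57 binds when methylated, and for CATTGT, a core of the SOX motif. TGCCGC was present in 10 of the 42 windows (23.8%), of 9 genes (Copg2, Grb10, Igf2, Meg3, Mest, Nnat, Plagl1, Snrpn and Zim1), and in 11.6% of all 32851 windows. CATTGT was present in 1 of the 42 windows (2.38%) and in 12.6% of all windows. That window is the second of the 4 Igf2 starts in 5′ to 3′ order, and it holds both motifs. It is shown with the window of Nnat, on GRCm38.p6 with the matches in capitals. Both genes had more counts in each Sox2-KD library than in any other library. So did Airn, Igf2r, Ascl2 and Ppp1r9a, whose windows held neither motif. A match is a description of the letters and not a measured binding site.
Igf2, chr7:142661222-142661521, minus strand: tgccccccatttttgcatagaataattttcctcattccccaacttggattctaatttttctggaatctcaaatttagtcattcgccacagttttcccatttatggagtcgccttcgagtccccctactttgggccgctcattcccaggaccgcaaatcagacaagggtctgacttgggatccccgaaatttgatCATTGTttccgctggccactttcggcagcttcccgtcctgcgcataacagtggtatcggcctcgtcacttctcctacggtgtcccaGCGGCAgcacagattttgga
Nnat, chr2:157559828-157560127, plus strand: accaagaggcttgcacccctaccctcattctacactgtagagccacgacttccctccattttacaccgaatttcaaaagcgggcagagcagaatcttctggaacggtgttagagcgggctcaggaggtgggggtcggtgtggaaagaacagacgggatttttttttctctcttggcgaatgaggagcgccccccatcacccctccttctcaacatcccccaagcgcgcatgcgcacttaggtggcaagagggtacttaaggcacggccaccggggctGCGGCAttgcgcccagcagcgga

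Totals were 16709201 to 17719366 counts per library. Sox2 had 7324 and 9257 counts in control and 5831 and 4968 counts in Sox2-KD (log2FC -0.64, standard error (SE) 0.16, adjusted p = 0.0479). Cdk9 had 1931 and 2254 counts in control and 1251 and 899 counts in Cdk9-KD (log2FC -0.91, SE 0.18, adjusted p = 0.0985). Hnrnpk had 19436 and 19736 counts in control but 11890 and 19663 counts in hnRNPK-KD, so that replicate 2 of that group was not lower than control, and the group is called by its label. A gene was called at an adjusted p under 0.05 with an absolute log2FC over 0.6 in edgeR's quasi-likelihood test. Of the 36 genes, 33 passed the filter on low counts, and Dlk1, Magel2 and Peg13 did not. H19, Igf2 and Airn passed it through the Sox2-KD libraries alone, so that their values in comparisons with Sox2-KD are descriptions with no test, and counts of called genes are over the other 30.

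In levels per length over all 8 libraries, Cd81 (a tetraspanin membrane protein) at 69.6 CPM (counts scaled to the TMM library size) per kb of exon, Peg10 at 68.6 and Impact at 53.6 were highest. A further 8 of the genes were at 10 CPM per kb or more, H19 among them at 11.1, and 13 genes were under 1 CPM per kb, Igf2 among them at 0.0599. The length used for Igf2 includes exon bases shared with another gene model, so that its level per kb may be too low. Cd81 belongs to the Kcnq1 cluster, and its start lies 475 kb from that of H19 on distal chromosome 7.

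H19 and Igf2 were both higher in Sox2-KD than in all 6 other libraries. H19 had 9 and 4 counts in control, 985 and 2815 in Sox2-KD, 31 and 3 in hnRNPK-KD, and 0 and 1 in Cdk9-KD. The mean level was 107 CPM ± 75.3 (SD, n = 2) in Sox2-KD and 0.368 CPM ± 0.196 (SD, n = 2) in control, a ratio of 292 between the means, and replicate 2 of Sox2-KD was well above replicate 1. The remaining 6 libraries did not exceed 1.82 CPM. Against control, the adjusted p of H19 was 0.813 in hnRNPK-KD and 0.635 in Cdk9-KD, where 0 and 1 counts are too few for a fold change. H19 passed the filter through Sox2-KD alone, and the fit took its spread from all 8 libraries. These 2 values therefore do not show that its level was the same as in control.

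Igf2, which encodes insulin-like growth factor 2, had 26 and 23 counts in Sox2-KD and 0 counts in each of the 6 other libraries. Taking 3 counts per library as the floor, Igf2 was at least 8.05-fold higher in Sox2-KD than in control, at least 7.83-fold higher than in hnRNPK-KD and at least 7.78-fold higher than in Cdk9-KD. No fold change is given for Igf2 in hnRNPK-KD or Cdk9-KD against control, since both groups were at 0. Of the exon bases of Igf2, 62.8% are shared with the gene model Gm49394 on the same strand, which had 0 counts. Igf2os, on the opposite strand, covers 1.7% of them and had 37 counts. The treatment of reads in shared bases is not given in the sources used here, so that Igf2 may be undercounted. The Sox2-KD means were 107 CPM for H19 and 1.37 CPM for Igf2, and with this limit they do not give the difference in abundance.

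**Figure D1:**
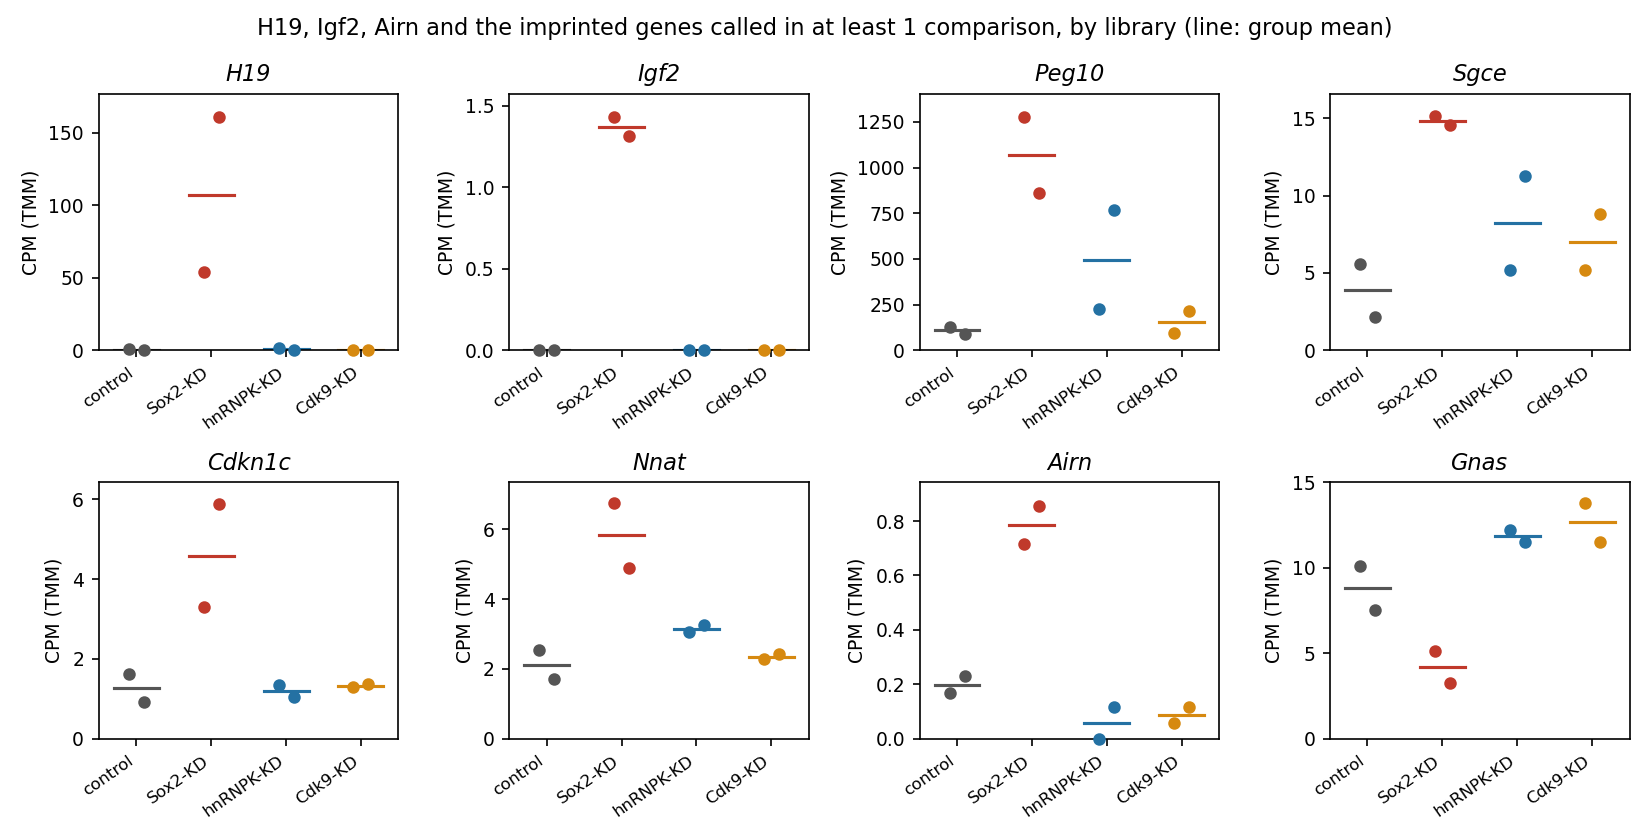
CPM after TMM scaling of H19, Igf2, Airn and the 5 imprinted genes called in at least 1 comparison (linear axes from 0), with 1 point per library and a line at the group mean. H19, Igf2, Cdkn1c, Nnat, Sgce and Airn sit highest in both Sox2-KD libraries, Gnas sits lowest in them, and Peg10 is also high in hnRNPK-KD replicate 2 (767 CPM).

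Between Sox2-KD and control, 4 of the 30 genes were called higher (Peg10, Sgce, Cdkn1c and Nnat) and 0 lower, where 2.63% of all 16504 genes were called higher and 1.69% lower. The median log2FC of the 30 genes was 0.26, and that of all genes was 0.02. The 2 Sox2-KD libraries did not overlap the 2 control libraries for 17 of the 30 genes (13 higher and 4 lower), while 53.3% of all genes had groups that did not overlap. The calls rest on few libraries. None of the 30 genes met the thresholds without control replicate 1 or without control replicate 2, Cdkn1c and Peg10 did without Sox2-KD replicate 1, and Peg10 did without Sox2-KD replicate 2.

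Peg10, a gene derived from a retrotransposon and needed for the placenta, was the called gene with the largest amount of RNA. It had 2293 and 1554 counts in control, 23276 and 15056 in Sox2-KD, 3846 and 13171 in hnRNPK-KD, and 1588 and 3651 in Cdk9-KD. The rise in Sox2-KD was 9.80-fold in mean CPM (log2FC 3.29, SE 0.54, adjusted p = 0.0103), and both Sox2-KD libraries were above all 6 others. Sgce, which encodes epsilon-sarcoglycan of the muscle and brain membrane complex, starts 99 bases from Peg10 on the opposite strand. Sgce had 99 and 38 counts in control, 276 and 255 in Sox2-KD, 89 and 194 in hnRNPK-KD, and 89 and 149 in Cdk9-KD (Sox2-KD against control, log2FC 1.94, SE 0.47, adjusted p = 0.0451). Ppp1r9a, the neurabin gene of the same cluster, was not called, with 503 and 350 counts in control and 1022 and 819 counts in Sox2-KD (log2FC 1.09, SE 0.32, adjusted p = 0.0846). Peg10, Sgce and Ppp1r9a all had their highest counts in the Sox2-KD libraries. That holds for these 3 listed genes and does not describe the cluster as a whole.

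Cdkn1c, the CDK inhibitor p57 of the Kcnq1 cluster, had 29 and 16 counts in control, 60 and 103 in Sox2-KD, 23 and 18 in hnRNPK-KD, and 22 and 23 in Cdk9-KD. It rose in Sox2-KD (log2FC 1.84, SE 0.44, adjusted p = 0.0414), and the 6 other libraries lay between 16 and 29 counts. An antisense gene model, Gm44732, covers 30.7% of its exon bases and had 0 counts. The cluster also holds Ascl2, Cd81, Kcnq1ot1, Slc22a18 and Phlda2. None of these was called, with log2FC from -0.65 (Slc22a18, a transporter) to 0.62 (Ascl2, a trophoblast bHLH factor) in Sox2-KD. Kcnq1ot1, the noncoding RNA transcribed from the paternal copy, had 304 and 264 counts in control and 373 and 420 in Sox2-KD (log2FC 0.46, adjusted p = 0.377). Cd81, the most abundant, had 2863 and 2103 counts in control, 3267 and 2655 in Sox2-KD, 4978 and 3230 in hnRNPK-KD, and 4721 and 3987 in Cdk9-KD.

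**Figure D2:**
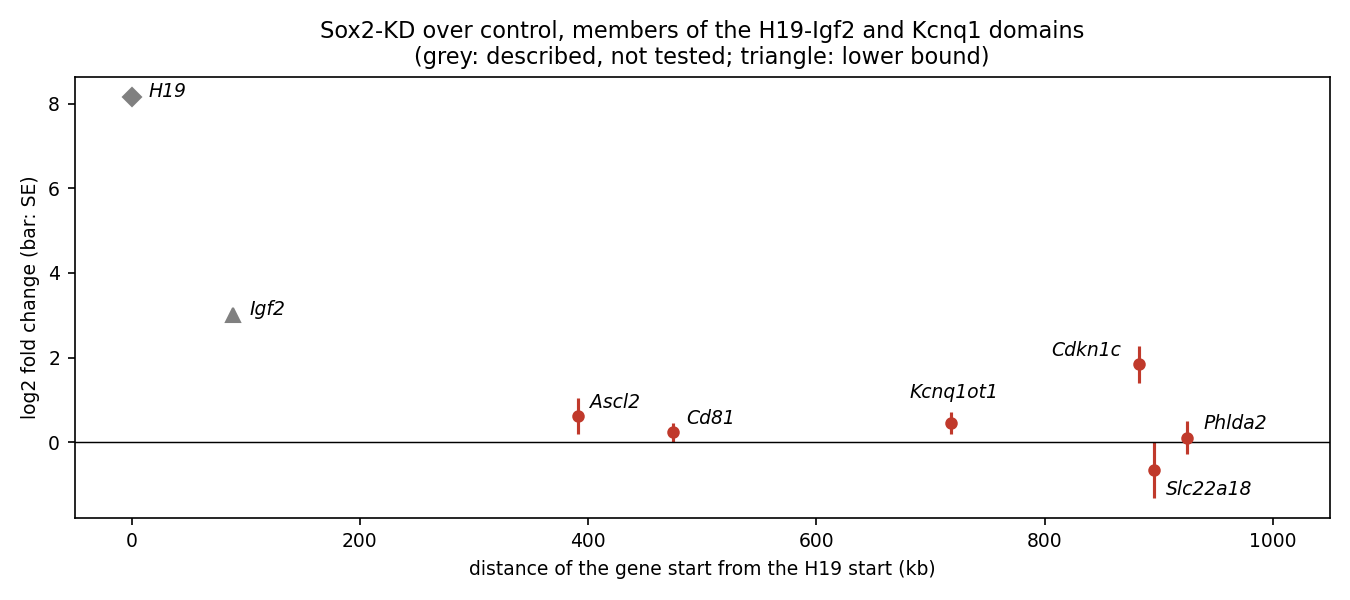
Log2FC of Sox2-KD over control (vertical axis, bars show SE) against the distance in kb of each gene start from the H19 start (horizontal axis) for the 8 members on distal chromosome 7; the grey marks are H19 and Igf2, described with no test, and the triangle is the lower bound of Igf2 (3.01 on the log2 scale). H19 and Igf2, 88.7 kb apart, stand above the other genes, and Cdkn1c at 883 kb was called while its neighbours Slc22a18 and Phlda2 were not.

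Nnat, a small proteolipid of neurons and glands, had 45 and 30 counts in control, 123 and 86 in Sox2-KD, 52 and 56 in hnRNPK-KD, and 39 and 41 in Cdk9-KD (Sox2-KD against control, log2FC 1.45, SE 0.34, adjusted p = 0.0408). Gnas, the locus of the stimulatory G protein alpha subunit, ran the other way, with 180 and 132 counts in control, 93 and 57 in Sox2-KD, 208 and 198 in hnRNPK-KD, and 236 and 195 in Cdk9-KD. Both Sox2-KD libraries were below all 6 others, but against control Gnas missed the threshold (log2FC -1.08, SE 0.29, adjusted p = 0.0624). Gnas has several start sites with different imprints, and Nespas and Gm20721 on the opposite strand cover 8.8% and 13.1% of its exon bases, so that its products cannot be told apart in counts per gene. Airn, the noncoding RNA that runs antisense to Igf2r, had 3 and 4 counts in control, 13 and 15 in Sox2-KD, 0 and 2 in hnRNPK-KD, and 1 and 2 in Cdk9-KD. Igf2r, the receptor that clears IGF2, had 3442 and 3233 counts in control, 4004 and 4814 in Sox2-KD, 3309 and 2727 in hnRNPK-KD, and 2877 and 3044 in Cdk9-KD. It was highest in both Sox2-KD libraries without being called in any comparison (Sox2-KD against control, log2FC 0.38, adjusted p = 0.219).

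The remaining clusters held no gene called in any of the 5 comparisons. In the Dlk1-Dio3 cluster of chromosome 12, the maternal noncoding RNAs were abundant in every group. Rian had 9087 and 6272 counts in control, 7733 and 6784 in Sox2-KD, 8010 and 12689 in hnRNPK-KD, and 7272 and 9705 in Cdk9-KD. Meg3 ranged from 3495 to 10449 counts and Mirg from 296 to 859 over the 8 libraries, and all 3 were highest in hnRNPK-KD replicate 2, and lowest in control replicate 2. The paternal genes were low, with 0 to 6 counts of Dlk1 (a Notch-like ligand), 46 to 111 of Rtl1 and 4 to 24 of Dio3 (a thyroid hormone deiodinase). In the Peg3 cluster, Peg3, a zinc finger gene, had 1001 and 809 counts in control, 1136 and 690 in Sox2-KD, 995 and 1600 in hnRNPK-KD, and 508 and 1728 in Cdk9-KD. The 2 Cdk9-KD libraries thus lay on both sides of all the others. Usp29 and Zim1 of that cluster had 7 to 40 and 10 to 33 counts.

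At the Mest locus, Copg2, a coatomer subunit, had 1847 and 1745 counts in control, 1632 and 1832 in Sox2-KD, 1565 and 1467 in hnRNPK-KD, and 1820 and 1520 in Cdk9-KD. Mest itself, a hydrolase transcribed from the paternal copy, had 490 and 503 counts in control and 999 and 880 in Sox2-KD (log2FC 0.90, SE 0.25, adjusted p = 0.0673). The 2 genes share 912 exon bases on opposite strands, and the strand setting of the counting is not given in the sources used here. In the Snrpn cluster, Ube3a, a ubiquitin ligase, had 1864 and 1536 counts in control, 1642 and 1353 in Sox2-KD, 2210 and 1578 in hnRNPK-KD, and 1110 and 1826 in Cdk9-KD. Snrpn, a splicing protein gene, ranged from 570 to 1165 counts, Ndn from 58 to 132 and Magel2 from 1 to 10, and Snrpn shares 27.3% of its exon bases with Gm38393. Impact, a regulator of translation, had 4806 and 4094 counts in control, 4562 and 3783 in Sox2-KD, 5440 and 5665 in hnRNPK-KD, and 3555 and 6300 in Cdk9-KD. Trappc9, a trafficking subunit, had 400 and 429 counts in control, 403 and 535 in Sox2-KD, 361 and 410 in hnRNPK-KD, and 604 and 416 in Cdk9-KD, while Peg13, the noncoding RNA in its intron, had 0 to 9. Of the genes at single loci, Zrsr1 had 562 to 730 counts, Plagl1 1249 to 5751 and Grb10 221 to 1272.

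No imprinted gene was called in hnRNPK-KD or in Cdk9-KD against control. In hnRNPK-KD, edgeR called 0% of all genes, and DESeq2 called 83 genes, 0 of them members. In edgeR, 7 of the 30 genes had an unadjusted p under 0.05 (8.03% of all genes did). Of the 30, 17 had groups that did not overlap (39.1% of all genes did). The largest log2FC there was that of Peg10 (2.18, SE 0.52, adjusted p = 0.361), and replicate 2, in which Hnrnpk was not lower, carried the higher Peg10 count. In Cdk9-KD, edgeR called 0.139% of all genes, and DESeq2 called 222 genes, 1 of them a member (Cd81). In edgeR, 6 of the 30 genes had an unadjusted p under 0.05 (10.4% of all genes did). Of the 30, 10 had groups that did not overlap (39.2% of all genes did). Cd81 had a log2FC of 0.86 (SE 0.22, adjusted p = 0.207) in that group. The median log2FC of the 30 genes was 0.34 in hnRNPK-KD and 0.35 in Cdk9-KD, and that of all genes was 0.02 in both. The 3 comparisons share the control libraries.

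**Figure D3:**
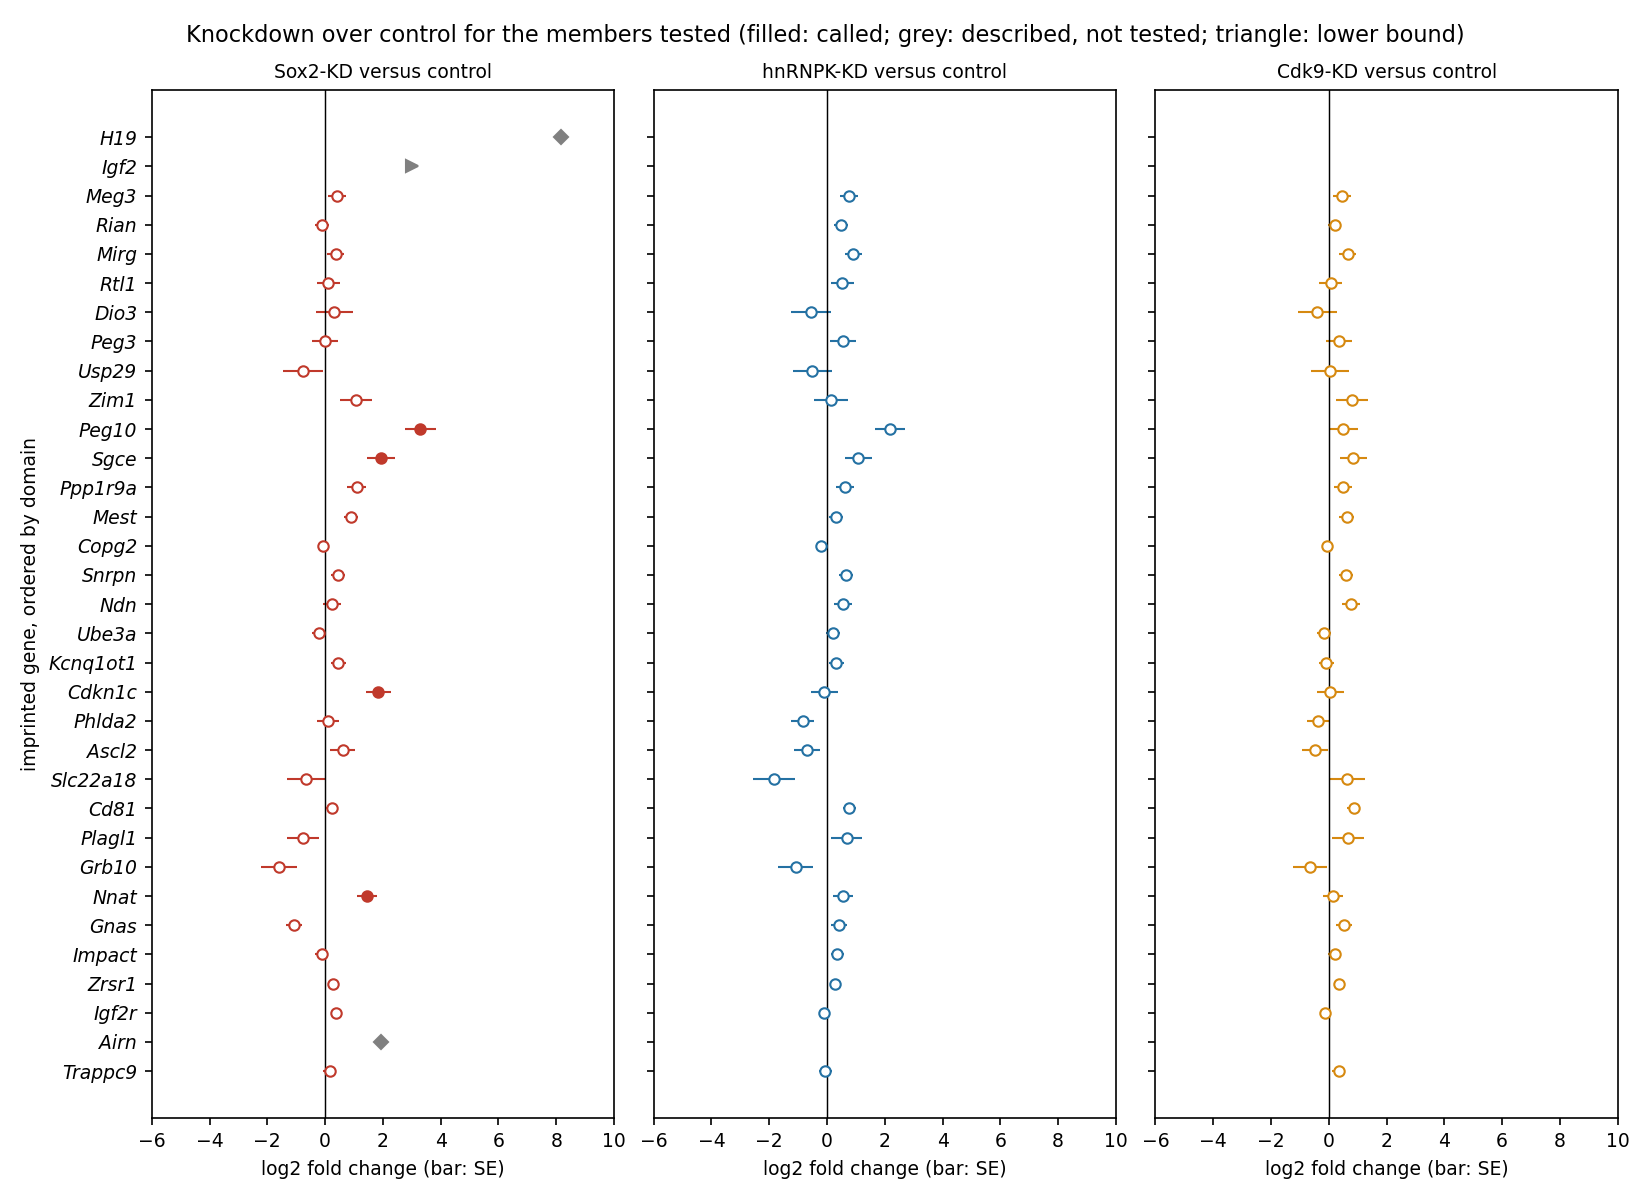
Log2FC of each knockdown over control (horizontal axes, bars show SE) for the imprinted genes tested, in order of cluster, with filled points for called genes. In Sox2-KD, Peg10, Sgce, Cdkn1c and Nnat are filled and lie to the right of 0, and no point is filled in the other panels; grey marks in the Sox2-KD panel are H19 and Airn (fitted values, which depend on the prior count) and the lower bound of Igf2, drawn with no test and in that panel alone.

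Sox2-KD was also set directly against the other knockdowns. Against hnRNPK-KD, 1 of the 30 genes was called higher (Cdkn1c) and 1 lower (Gnas), where 3.95% of all genes were called higher and 1.95% lower. Cdkn1c had a log2FC of 1.93 (SE 0.44, adjusted p = 0.0310) and Gnas of -1.50 (SE 0.29, adjusted p = 0.0169). Airn had 28 counts against 2 in the summed libraries, a ratio of 13.4 (95% exact Clopper-Pearson interval 3.38 to 116, counting error alone), given with no test. Without hnRNPK-KD replicate 2, the library in which Hnrnpk was not lower, none of the 30 genes met the thresholds, and the same held without Sox2-KD replicate 2. Without hnRNPK-KD replicate 1, Mirg alone of the 30 did so, with the lower level in Sox2-KD. Peg10 was not called between these groups (log2FC 1.11, adjusted p = 0.236).

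Against Cdk9-KD, 3 of the 30 genes were called higher (Peg10, Cdkn1c and Nnat) and 1 lower (Gnas), where 4.77% of all genes were called higher and 2.56% lower. Peg10 had a log2FC of 2.79 (SE 0.53, adjusted p = 0.0116), Cdkn1c of 1.79 (SE 0.44, adjusted p = 0.0334), Nnat of 1.31 (SE 0.34, adjusted p = 0.0436) and Gnas of -1.60 (SE 0.29, adjusted p = 0.00930). Airn had 28 counts against 3 in the summed libraries, a ratio of 8.89 (95% exact Clopper-Pearson interval 2.75 to 45.7), again with no test. These calls rest on few libraries. Without Sox2-KD replicate 2, Peg10 met the thresholds, and Cdkn1c, Nnat and Gnas did not. Without Cdk9-KD replicate 1, Gnas met them, and Peg10, Cdkn1c and Nnat did not. Plagl1, not called in the full fit, also met them there, with the lower level in Sox2-KD. Without Cdk9-KD replicate 2, Peg10 and Gnas met them, and Cdkn1c and Nnat did not. These comparisons share the Sox2-KD libraries with each other and with the comparison with control.

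The replicates of a group differed more in the imprinted genes than the median gene did in 3 of the 4 groups. The median absolute log2 ratio of replicate 2 to replicate 1 over the 33 genes was 0.42 in control, 0.23 in Sox2-KD, 0.60 in hnRNPK-KD and 0.59 in Cdk9-KD. Over all genes it was 0.24, 0.23, 0.25 and 0.31. More than 1 log2 unit separated the replicates for 10 of the 33 genes in hnRNPK-KD and 9 in Cdk9-KD, while 7.22% and 8.88% of all genes were that far apart. The 33 include H19, Igf2 and Airn, which passed the filter through Sox2-KD alone. H19 (31 and 3 counts) and Airn (0 and 2) are among the 10. Counting noise adds to the ratios of genes with few counts, such as Slc22a18 (2 and 14) in hnRNPK-KD and Usp29 (7 and 40) in Cdk9-KD. Plagl1, a zinc finger regulator of growth, had 2042 and 5204 counts in hnRNPK-KD and 1330 and 5751 in Cdk9-KD, against 2435 and 2218 in control and 1523 and 1249 in Sox2-KD. Grb10, an adaptor that restrains growth signalling, ran the other way in the same libraries, with 722 and 221 counts in hnRNPK-KD and 1040 and 237 in Cdk9-KD, against 1272 and 788 in control and 347 and 343 in Sox2-KD. Peg10 (3846 and 13171) and Peg3 (508 and 1728) also differed by more than 1 log2 unit between replicates. These are descriptions of pairs of libraries, with no test.

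**Figure D4:**
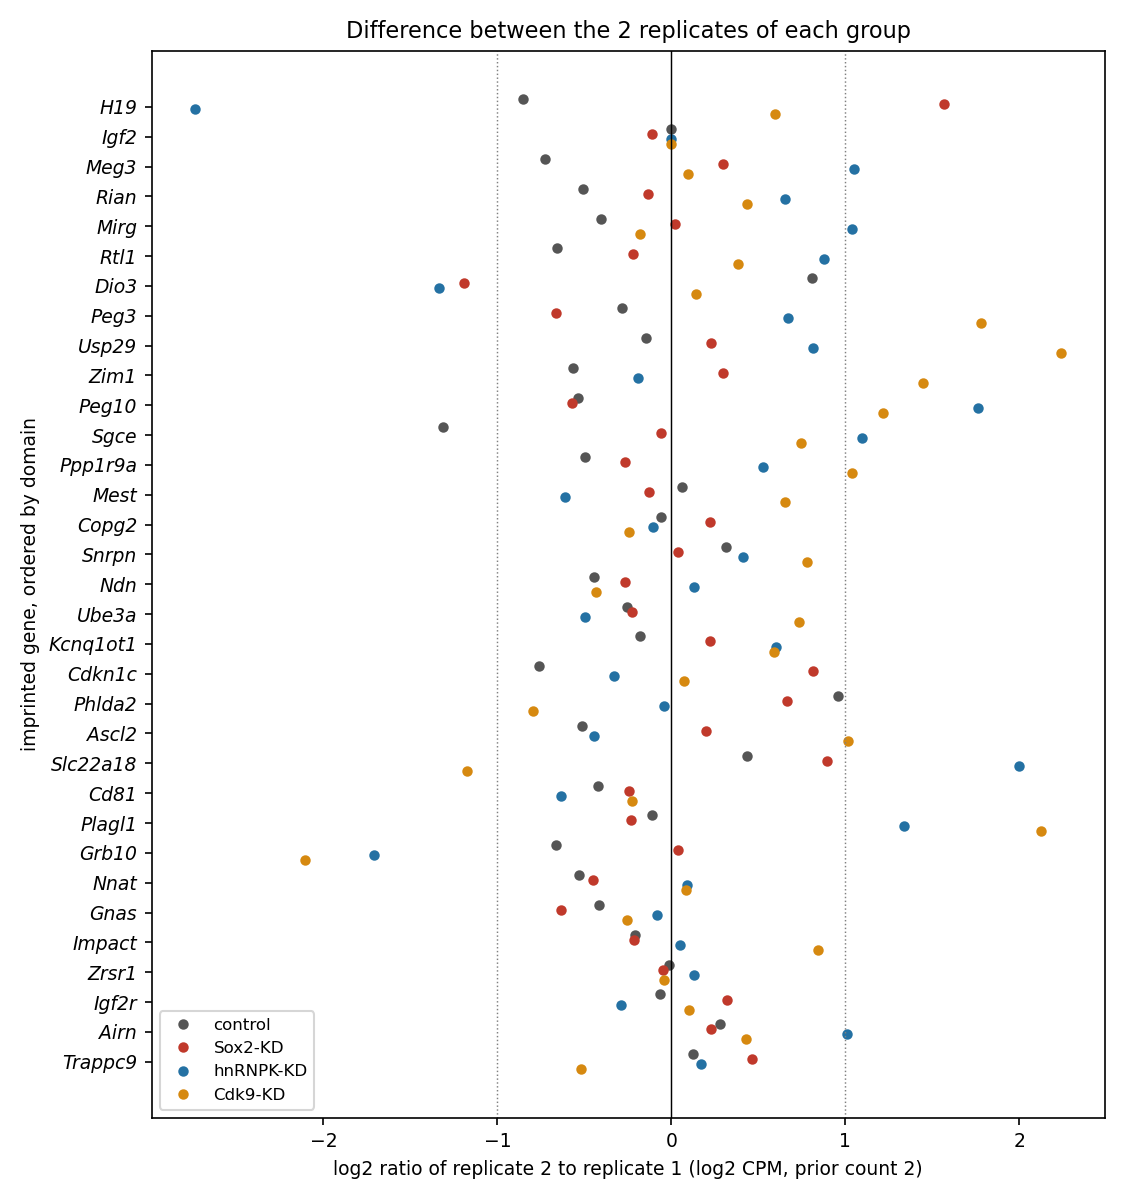
Log2 ratio of replicate 2 to replicate 1 (edgeR log2 CPM, horizontal axis) for each imprinted gene tested, 1 coloured point per group, with dotted lines at a log2 ratio of 1 in either direction. The points of hnRNPK-KD and Cdk9-KD spread past these lines for 10 and 9 genes, Plagl1 to the right and Grb10 to the left in both. H19 and Airn, with few counts in hnRNPK-KD, are among the 10.

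Other genes bear on the same pathways. Of 45 further imprinted genes, 35 passed the filter, 3 of them (Th, Asb4 and Slc22a3) only with the Sox2-KD libraries. Of the other 32, 3 were called higher and 2 lower in Sox2-KD against control, with a median log2FC of 0.25. Of all genes, 2.63% were called higher and 1.69% lower in that comparison, which the lists below also use. Sfmbt2, a Polycomb gene of the placenta, rose from 540 and 684 to 2995 and 3906 counts (log2FC 2.48, adjusted p = 0.0105), and Ddc, a decarboxylase gene next to Grb10, fell from 384 and 427 to 122 and 182 (log2FC -1.43, adjusted p = 0.0127). Xist, the noncoding RNA of X inactivation (log2FC 1.62), and Pon2, a paraoxonase gene of the Peg10 cluster (log2FC 1.25), were called higher as well. Of 21 genes for imprint maintenance and DNA methylation, 2 were called higher (Dnmt3l, log2FC 1.28, and Zfp57, log2FC 0.66) and 2 lower (Tet2, log2FC -1.30, and Uhrf1, log2FC -0.70), with a median of 0.09. Dnmt3l is a cofactor of the de novo methyltransferases, TET2 oxidizes methylcytosine, and UHRF1 recruits DNMT1. Of the 15 IGF pathway genes, 11 were tested, 1 was called higher and 1 lower, and Igfbp2, which binds IGF2, fell from 2989 and 2446 to 651 and 888 counts (log2FC -1.84, adjusted p = 0.00489). None of these 3 lists held a call in Cdk9-KD against control.

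Some markers of other cell types differed between Sox2-KD and control, and not all in the same direction. Of all genes, 2.63% were called higher and 1.69% lower in Sox2-KD against control. Of the trophectoderm markers, 9 passed the filter without the Sox2-KD libraries, and 5 of these were called higher in Sox2-KD and 0 lower. Among the 5 were Krt18 (log2FC 4.34) and Krt8 (log2FC 2.97), keratins of simple epithelia. Cdx2, a defining transcription factor of the trophectoderm, had 351 and 613 counts in control and 111 and 109 in Sox2-KD (log2FC -2.15, adjusted p = 0.0521), and Tfap2c, another, had a log2FC of -0.50 (adjusted p = 0.398). The summed level of the list was 263 and 406 CPM in the Sox2-KD libraries and 154 to 188 CPM in the 6 others. Krt8 and Krt18 carried most of that difference. Krt8 had 97.1 and 182 CPM in Sox2-KD and 17.4 to 30.4 CPM in the 6 others, and Krt18 had 41.4 and 82.7 CPM and 1.45 to 5.57 CPM. The placental markers of the list, Tpbpa and Prl3d1, were at 0 in every library. Replicate 2 of Sox2-KD was the higher of the pair in these 2 keratins and in H19, and a link between them was not tested. Of the 8 primitive endoderm markers that passed so, 1 was called higher (Dab2, log2FC 5.85) and 1 lower (Lama1, log2FC -1.01). The list summed to 181 and 233 CPM in Sox2-KD and 246 to 373 CPM elsewhere. Lama1 was the largest part of every sum, with 88.9 and 139 CPM in Sox2-KD and 217 to 341 CPM elsewhere. Dab2 ran the other way, with 637 and 950 counts in Sox2-KD and 4 to 15 elsewhere. Of the 8, 5 were higher and 2 lower in both Sox2-KD libraries than in both control libraries, while 53.3% of all genes did not overlap. The median log2FC of the 8 was 0.61. The sums therefore do not stand for the list. None of the 10 naive pluripotency markers was called, with sums of 4306 and 4869 CPM in Sox2-KD and 4752 to 6009 CPM elsewhere. Each of the 10 had counts in every library. Of the 10, 6 were lower and 1 higher in both Sox2-KD libraries than in both control libraries, where 53.3% of all genes did not overlap. The median log2FC of the 10 was -0.27, so that a missed call does not show unchanged levels. Mesoderm markers held no call (6 passed so, 31.6 and 26.6 CPM in Sox2-KD, 26.4 to 44.8 CPM elsewhere), and fibroblast markers held none (3 passed so), with S100a4 at 0 and sums of 2.48 to 6.42 CPM over all libraries. In Cdk9-KD, 1 trophectoderm marker was called higher and 1 lower, where 0.139% of all genes were called. The part of these markers in the levels of the imprinted genes was not tested, and in bulk RNA fewer cells of a type and less RNA per cell cannot be told apart.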

How the data were processed

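PolyA RNA of 8 libraries was sequenced. The authors trimmed the reads with Trimmomatic, mapped them to mm10 (GENCODE vM23) with STAR and counted per gene with featureCounts 2.0.1, and deposited raw counts. The strand setting and the treatment of shared reads are not given in the sources used here. Symbols and positions are from GENCODE vM21. After filterByExpr (minimum count 10, total 15), 16504 genes were tested in edgeR 4.0.16 (R 4.3.3) by the quasi-likelihood test with TMM scaling, the 4 groups in 1 fit without a block, and Benjamini-Hochberg adjustment over all of them. An SE is the log2FC over the square root of F. The script was tested on simulated data.

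The members, the other lists and the tests were chosen with earlier results of these data known. Values are given in every library for H19, Igf2, called members and the most abundant member of each cluster, and other lists are named only where called (average log2 CPM over 1, at most 4 a list). Cdx2, Tfap2c, Plagl1, Grb10, Mest, Ppp1r9a, Kcnq1ot1 and the neighbours of Cdkn1c were named after their values were seen. The alternatives were DESeq2 1.42.0, DESeq2-type size factors, library totals, other filters (none, or 10 counts in every library), the likelihood ratio test, fits of 4 libraries, the replicate number as a block, an absolute log2FC over 1 and leaving out each library. Figures were drawn with matplotlib 3.10.9.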

Additional observations from a re-analysis of the deposited data

How the results depend on the processing

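H19 was selected on these same 8 libraries and the called genes were called in them, so that a kept direction is no separate support. The log2FC of H19, Igf2 and the called genes was refitted 234 times under the alternatives and kept its direction 233 times. The exception was H19 in hnRNPK-KD against control, which was -1.06 without hnRNPK-KD replicate 1 and 2.26 without replicate 2. The call was lost in 61 of these refits. The counts of called genes here include H19, Igf2 and Airn, which are described with no test in the report. The number called among all genes tested is given in brackets. In Sox2-KD against control, 6 genes (713) were called. The count was 3 (572) with no filter and 10 (1350) with the likelihood ratio test. In hnRNPK-KD it was 0 (0) in the test reported and 1 (87), Peg10, with the likelihood ratio test. In Cdk9-KD it was 0 (23). It was 1, Cd81, with DESeq2 (222) and with the likelihood ratio test (279). Against hnRNPK-KD, 5 genes (974) became 2 (685) with at least 10 counts in every library, which removed H19, Igf2 and Airn. Against Cdk9-KD, 7 (1210) became 4 (869) with that filter. In these 3 comparisons with Sox2-KD, both numbers fell whenever 1 library was left out. Over the other 30 genes, the 4 calls against control became 1 with no filter, 7 with DESeq2 or the likelihood ratio test and 0 to 2 when 1 library was left out. Where a group was left with 1 library, that library was assumed to vary like the other groups. DESeq2 gave no adjusted p for Igf2 in Sox2-KD against control, and no refit was made for Igf2 between groups at 0.

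The groups share replicate numbers 1 and 2, but deviations of same-numbered libraries had correlations of -0.22 to 0.21 over genes, so that the numbers were not taken as pairs. With the number as a replicate block, 5 genes were called in Sox2-KD (Cdkn1c and Sgce lost, Gnas gained), 0 in hnRNPK-KD, 0 in Cdk9-KD, 5 against hnRNPK-KD and 6 against Cdk9-KD (Nnat and Airn lost, Cd81 gained). With the Cdk9-KD numbers crossed, an alternative chosen after seeing the data, the count against Cdk9-KD was 6. Genes with few counts (Igf2, Airn, Cdkn1c) are limited by depth, and with 2 replicates a group a missed threshold does not show that a level was the same.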
